A study of Mus musculus with 6 samples.

Results

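The genes described here are sensors and adaptors of the innate response to viruses, most of which sense viral nucleic acid or relay that signal. They are DDX58, IFIH1, DHX58, TLR2, TLR3, MYD88, TBK1, ZBP1, EIF2AK2 and TMEM173, written in capitals as in the deposited table. All probes whose listed symbol was one of these names or an older alias were taken, which gave 16 probes of the 10 genes among 45281 probes on the array. DDX58 had 2 probes, one of them listed as 6430573D20RIK. DHX58 had 4 probes, all listed as D11LGP2E, and MYD88 and ZBP1 had 2 each. The other genes had 1 probe each, with EIF2AK2 listed as PRKR and TMEM173 as 2610307O08RIK.

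The measurements came from primary Sertoli cells, the somatic cells of the seminiferous epithelium that nurse germ cells. The donors were 3 week-old C57BL/6J mice homozygous for the floxed Ctnnb1 tm1Mmt allele, and their seminiferous tubules were pooled before culture. Cells were infected for 24 h in medium without serum, at a multiplicity of about 50, with an adenovirus carrying Cre recombinase (Ad-Cre) or one carrying eGFP (Ad-eGFP, control). Cre removes part of the floxed gene, after which a dominant-stable form of CTNNB1 (beta-catenin) that resists degradation is made. Each RNA sample gave 1 array of an Illumina BeadChip, with 3 samples per treatment. Both treatments carried the floxed alleles and an adenovirus. Cre-infected cells lacking the floxed allele are not analysed here. Effects of the recombined allele, of Cre itself and of differences between the virus preparations cannot be told apart. The sources used here do not say whether the samples of a treatment were separate cultures, so the p-values measure the spread between these samples, which may be technical.

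Labels were first checked on the arrays. The eGFP probe gave a normalized log2 intensity of 14.93 ± 0.12 with Ad-eGFP and 13.02 ± 0.26 with Ad-Cre (SD, n = 3 each). It was therefore lower with Ad-Cre (log2 fold change -1.91, adjusted p = 3.68e-04, limma), and it was detected on all 6 arrays, those of Ad-Cre included. AXIN2, a known target gene of CTNNB1, was higher with Ad-Cre (log2 fold change 1.22, SE 0.14, adjusted p = 0.00178, limma). The 3 probes of CTNNB1 itself did not move together, with log2 fold changes of 0.22 (adjusted p = 0.211), 0.30 (adjusted p = 0.0254) and -0.39 (adjusted p = 0.0187). The second call ended without Ad-Cre replicate 2 or any 1 of the Ad-eGFP arrays (adjusted p of 0.0532 to 0.0900), and the third without any 1 of the Ad-eGFP arrays (0.0561 to 0.0718). All 12 Sertoli cell markers examined were detected, with CLDN11, a tight junction protein, the brightest.

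Cells recognise viruses mainly by their nucleic acids. DDX58 (RIG-I) and IFIH1 (MDA5) are cytosolic helicases that bind viral RNA and signal through the mitochondrial adaptor MAVS, while DHX58 (LGP2) is a related helicase that lacks the signaling domains and tunes the other 2. EIF2AK2 (PKR) is a kinase that binds double-stranded RNA and halts translation by phosphorylating eIF2alpha. TLR3 reads double-stranded RNA in endosomes through the adaptor TICAM1, and TLR2 is a cell-surface receptor for lipoproteins that also takes part in responses to viruses and signals through MYD88. ZBP1 binds nucleic acids in the left-handed Z form and acts with the kinase RIPK3, and TMEM173 (STING) is the receptor for the cyclic dinucleotide that cGAS makes on DNA. Several of these routes end on TBK1, the kinase that activates the interferon factor IRF3. Adenoviruses carry a DNA genome. Sertoli cells are known to express several of these receptors in the testis.

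Promoter stretches are shown for the members that carry a motif relevant to this system, the core of the interferon-stimulated response element (ISRE) or the NF-kB consensus. RefSeq promoter windows (GRCm38.p6, 250 bases before to 50 after the transcription start) were found for 7 of the 10 genes, namely DDX58, IFIH1, TLR2, TLR3, MYD88, TBK1 and EIF2AK2. The ISRE core, GAAA followed by any 2 bases and a second GAAA, was searched on both strands, as were the other motifs. It was found in 4 of the 7, against 3.44% of all 32851 windows. Matches to the NF-kB consensus lay in 2 of the 7 windows (4.51% of all windows). The TCF/LEF core CTTTGAT, the kind of site through which CTNNB1 acts, was found in 0 of the 7 windows, against 3.73% of all windows. The matched letters are in capitals, each stretch is read 5′ to 3′ along the gene, and all of these genes lie on the minus strand. In DDX58 the match is on the opposite strand, so that its capitals show the reverse complement of the ISRE core.
DDX58 ISRE core, chr4:40239804-40239833: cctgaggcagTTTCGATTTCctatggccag
IFIH1 ISRE core, chr2:62646206-62646233: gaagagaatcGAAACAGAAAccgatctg
EIF2AK2 ISRE core, chr17:78882535-78882564: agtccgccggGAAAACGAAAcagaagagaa
MYD88 ISRE core, chr9:119340039-119340068: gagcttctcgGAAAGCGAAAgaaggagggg
TLR2 NF-kB, chr3:83841762-83841791: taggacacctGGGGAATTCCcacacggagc
TLR2 NF-kB, chr3:83841597-83841626: ccctgacctgGGGACATCCCcttccctcac
TLR3 NF-kB, chr8:45410572-45410601: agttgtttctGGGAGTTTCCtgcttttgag

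The ISRE letters began 2 bases after the first transcribed base in DDX58, 18 after it in EIF2AK2 and 32 after it in IFIH1. In MYD88 they began 40 bases upstream of it. The printed NF-kB letters of TLR2 began 173 and 8 bases upstream, and the first of these stretches holds 2 more, overlapping matches, 1 on each strand, that begin 1 base later and end on the first base after the capitals. Those of TLR3 began 211 bases upstream. A match is a description of the letters only and shows neither binding nor a cause.

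Detection differed strongly between the members. A probe was called detected on an array where its detection p-value, taken against the negative-control beads, was under 0.05. Of the 16 probes, 11 were detected on all 6 arrays, 4 on none (IFIH1, TLR3, 1 of the DHX58 probes and 1 of the ZBP1 probes), and 1, the DDX58 probe 870026, on the 3 Ad-Cre arrays only. Each array detected between 20288 and 20901 of the 45281 probes in all, and its median raw signal was between 129 and 137.

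**Figure D1:**
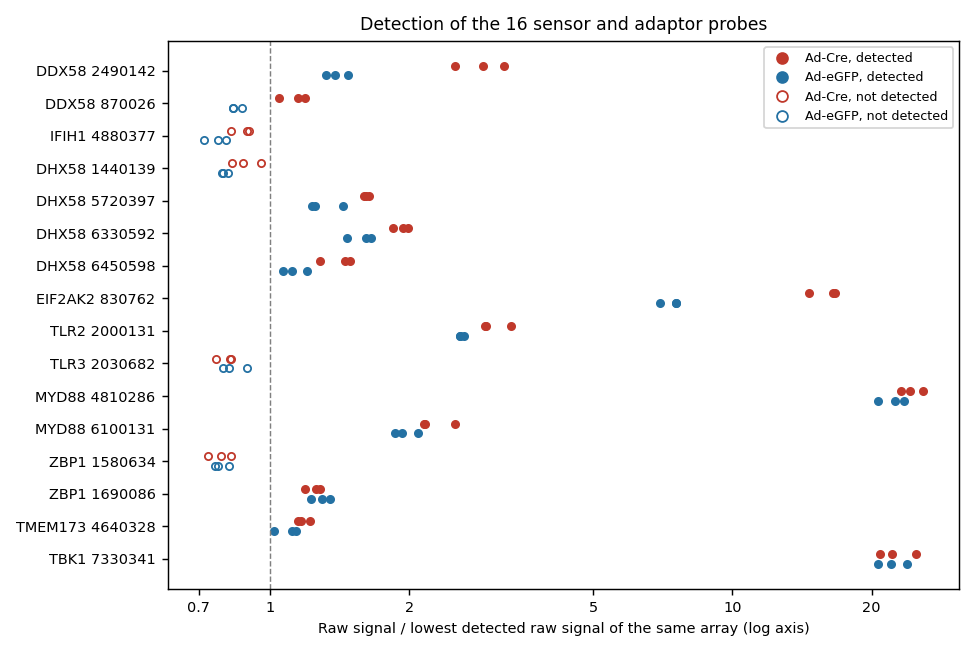
Raw signal of each of the 16 probes on each array, divided by the lowest raw signal that the same array detected (log axis, dashed line at 1), with filled points for arrays that detected the probe. IFIH1 and TLR3 lay below the line on all 6 arrays, DDX58 probe 870026 lay above it on the 3 Ad-Cre arrays only, and TMEM173 lay between 1.02 and 1.22 times the lowest detected signal.

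IFIH1 and TLR3 were not above background in these cells. The raw signal of the IFIH1 probe was between 0.72 and 0.90 of the lowest signal detected on the same array, and that of the TLR3 probe between 0.76 and 0.89. Each gene had a single probe on the array. Probes of EIF2S1 and XRCC5, genes that nearly every cell uses, were also undetected on all 6 arrays, so an undetected probe does not show that a transcript was absent.

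The comparison of Ad-Cre with Ad-eGFP asked which genes differed a day after infection, whatever the part of the recombined allele, Cre or the virus preparation. The test, limma, covered the probes that 3 or more of the 6 arrays detected. It was run on background-corrected and quantile-normalized log2 intensities, with p-values adjusted by Benjamini and Hochberg over the 20855 tested probes. Of all tested probes, 2231 (10.7%) were higher and 2543 (12.2%) lower with Ad-Cre at an adjusted p under 0.05. The arrays of the 2 treatments did not overlap for 8759 (42.0%) of them. The median log2 fold change of all tested probes was 0.00064.

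Among the sensors and adaptors 12 probes of 8 genes could be tested. By probe, 7 were higher with Ad-Cre, 0 were lower and 5 did not pass the threshold in limma, and at an unadjusted p under 0.05 the number of lower genes was also 0. One of the 7, the second DDX58 probe, entered the test only through its detection with Ad-Cre; of the 11 probes detected on all arrays, 6 were higher. Taken by gene, with the brightest tested probe of each, DDX58, DHX58, EIF2AK2 and TLR2 were higher, 0 genes were lower, and MYD88, TBK1, ZBP1 and TMEM173 did not pass. The arrays of the treatments did not overlap for 9 of the 12 probes and for 5 of the 8 genes. The median log2 fold change was 0.37 over the 12 probes and 0.28 over the 8 genes.

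**Figure D2:**
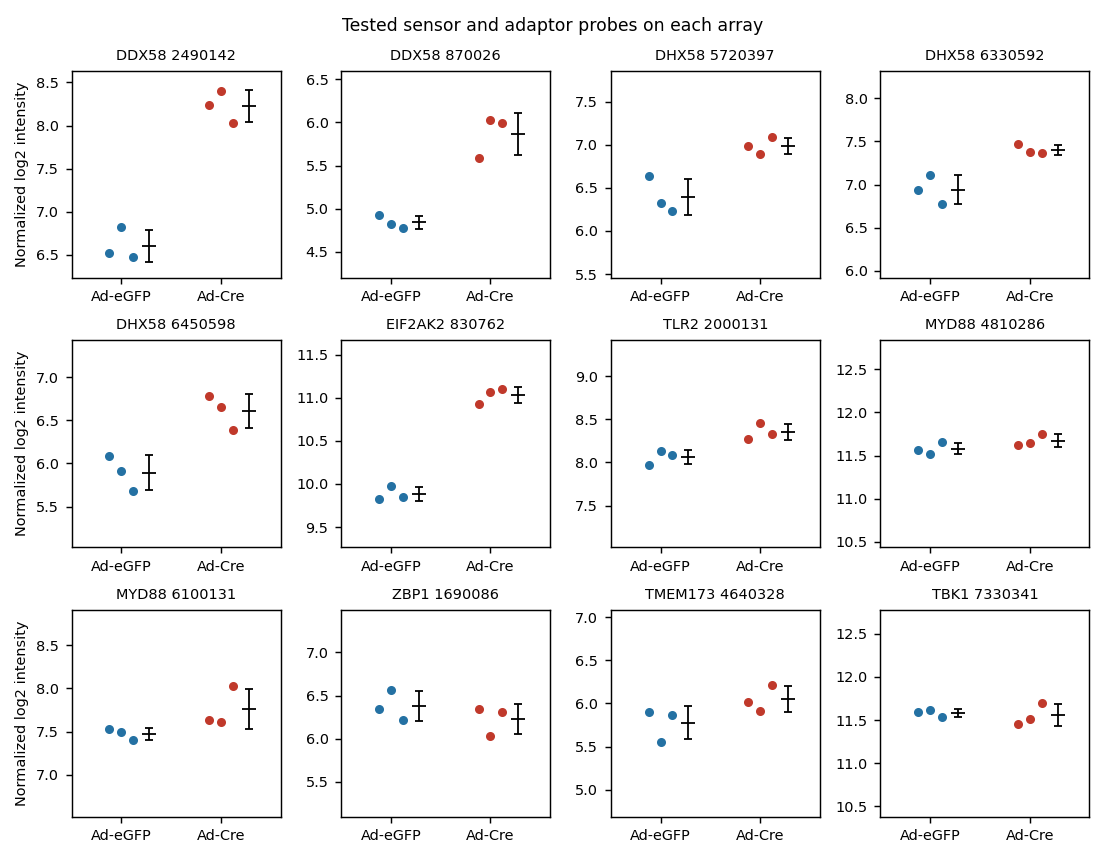
Normalized log2 intensity of the 12 tested probes on each array, Ad-eGFP in blue and Ad-Cre in red, with the mean and SD of the 3 arrays beside them; every panel spans the same log2 range. The 3 Ad-Cre arrays lie above all Ad-eGFP arrays for both DDX58 probes, the 3 tested DHX58 probes, EIF2AK2, TLR2, TMEM173 and MYD88 probe 6100131, and the treatments overlap for the remaining 3 probes.

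The helicase DDX58 was higher with Ad-Cre. Its probe 2490142 gave normalized log2 intensities of 8.24, 8.40 and 8.03 on Ad-Cre replicates 1, 2 and 3 and of 6.53, 6.82 and 6.47 on Ad-eGFP replicates 1, 2 and 3. The lowest Ad-Cre array lay well above the highest Ad-eGFP array. Mean levels were 8.22 ± 0.19 with Ad-Cre and 6.61 ± 0.19 with Ad-eGFP (SD, n = 3 each). The log2 fold change was 1.61 (SE 0.13, 95% confidence interval 1.31 to 1.92), or 3.06-fold, and the adjusted p was 4.63e-04 (limma). With no background correction the log2 fold change was 0.96, and with an offset larger than 16 added before the logarithm (called the larger offset) it was 0.67, below the 1.06 and 0.98 of EIF2AK2 under the same settings, and the call held in both. At the offset of 16, among all tested probes, 0.336% changed by at least as much in either direction. The raw signals before any correction were 409, 435 and 364 with Ad-Cre and 195, 205 and 182 with Ad-eGFP. They stood 2.51 to 3.21 times above the lowest detected signal with Ad-Cre and 1.32 to 1.47 times with Ad-eGFP.

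The second DDX58 probe, 870026, pointed the same way close to the detection limit. Its log2 intensities were 5.58, 6.03 and 5.99 with Ad-Cre and 4.93, 4.82 and 4.77 with Ad-eGFP. None of the Ad-eGFP arrays detected it, so its level there is only bounded. Measured against the lowest detected signal of the Ad-eGFP arrays, it was at least 1.35-fold higher with Ad-Cre (adjusted p = 0.00231, limma). Such a bound, used here for every probe with no level in 1 treatment, compares the brighter mean with the detection limit of the opposite arrays, or with the probe's own signal where that is higher.

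DHX58, the regulatory helicase, was higher on all 3 of its detected probes, by amounts that also depended on the offset. Probe 6330592, the brightest, gave 7.47, 7.37 and 7.36 with Ad-Cre and 6.94, 7.11 and 6.77 with Ad-eGFP, without overlap. The log2 fold change was 0.46 (SE 0.10), or 1.37-fold, with an adjusted p of 0.0179 (limma). Leaving out Ad-Cre replicate 1 or 2, or Ad-eGFP replicate 1 or 3, moved this adjusted p to 0.0541, 0.0510, 0.0575 and 0.0607, which ends the call, while the log2 fold change stayed between 0.38 and 0.47 in those 4 fits.

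The other detected DHX58 probes were somewhat further apart. Probe 5720397 read 6.98, 6.90 and 7.08 with Ad-Cre and 6.63, 6.33 and 6.23 with Ad-eGFP, which gives a log2 fold change of 0.59 (SE 0.12, adjusted p = 0.0129, limma). Probe 6450598 read 6.78, 6.65 and 6.39 with Ad-Cre and 6.09, 5.91 and 5.68 with Ad-eGFP, which gives a log2 fold change of 0.71 (SE 0.14, adjusted p = 0.0119, limma). Neither probe overlapped between treatments, and leaving out any 1 array ended neither call. The log2 fold changes of the 3 detected probes lay between 0.25 and 0.29 with no background correction and were 0.17, 0.18 and 0.17 with the larger offset, and the calls held in both. The fourth probe, 1440139, was not detected and read between 4.69 and 5.25 on the 6 arrays.

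The kinase EIF2AK2 (PKR) was higher as well. Its single probe, 830762, gave log2 intensities of 10.93, 11.07 and 11.10 with Ad-Cre and 9.83, 9.98 and 9.85 with Ad-eGFP. The treatments were separated by several times the spread within either. The means were 11.03 ± 0.09 and 9.88 ± 0.08 (SD, n = 3 each), with a log2 fold change of 1.15 (SE 0.08, 95% confidence interval 0.95 to 1.35), or 2.22-fold, and an adjusted p of 3.71e-04 (limma). In raw signal the probe stood 14.7 to 16.7 times above the lowest detected signal with Ad-Cre and 6.96 to 7.55 times with Ad-eGFP. EIF2AK2 is among the genes that the study itself selected on these arrays, and its direction is therefore not independent evidence.

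TLR2, the surface receptor, showed a small difference whose call depended on every single array. The arrays read 8.27, 8.46 and 8.33 with Ad-Cre and 7.98, 8.13 and 8.09 with Ad-eGFP, without overlap. The log2 fold change was 0.29 (SE 0.08, 95% confidence interval 0.09 to 0.48), or 1.22-fold, with an adjusted p of 0.0480 (limma), and 0.16 with the larger offset. Leaving out any 1 of the 6 arrays ended the call: the adjusted p was then 0.0609, 0.137 and 0.0560 without Ad-Cre replicates 1, 2 and 3, and 0.152, 0.0899 and 0.122 without Ad-eGFP replicates 1, 2 and 3. With the replicate number as a replicate block it was 0.0553.

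MYD88, the adaptor of most Toll-like receptors, did not pass on either probe. Probe 4810286 read 11.62, 11.65 and 11.75 with Ad-Cre and 11.57, 11.52 and 11.65 with Ad-eGFP, so that the treatments overlapped. Its log2 fold change of 0.09 had a 95% confidence interval of -0.09 to 0.27 (adjusted p = 0.432, limma). Probe 6100131 read 7.64, 7.61 and 8.03 with Ad-Cre and 7.54, 7.49 and 7.40 with Ad-eGFP. Those arrays did not overlap, but the log2 fold change of 0.28 (SE 0.12) missed the threshold (adjusted p = 0.142, limma), and Ad-Cre replicate 3 alone stood clearly apart.

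On the DNA-sensing side neither gene passed. The detected ZBP1 probe, 1690086, read 6.34, 6.03 and 6.31 with Ad-Cre and 6.34, 6.56 and 6.22 with Ad-eGFP, with a log2 fold change of -0.15 (95% confidence interval -0.44 to 0.14, adjusted p = 0.433, limma). TMEM173 (STING) read 6.02, 5.91 and 6.22 with Ad-Cre and 5.90, 5.56 and 5.87 with Ad-eGFP. All 3 Ad-Cre arrays were above all Ad-eGFP arrays, by little, and the log2 fold change of 0.27 (95% confidence interval -0.02 to 0.57) did not pass (adjusted p = 0.158, limma). Raw signals of both probes were within 1.35 times the lowest detected signal on every array. This limits what either could show.

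TBK1, the kinase on which several routes meet, was measured well above background and did not separate the treatments. It read 11.46, 11.51 and 11.70 with Ad-Cre and 11.59, 11.62 and 11.53 with Ad-eGFP. Ad-Cre held both the lowest and the highest array. The log2 fold change of -0.02 had a 95% confidence interval of -0.23 to 0.18 (adjusted p = 0.874, limma), and its sign depended on the normalization.

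**Figure D3:**
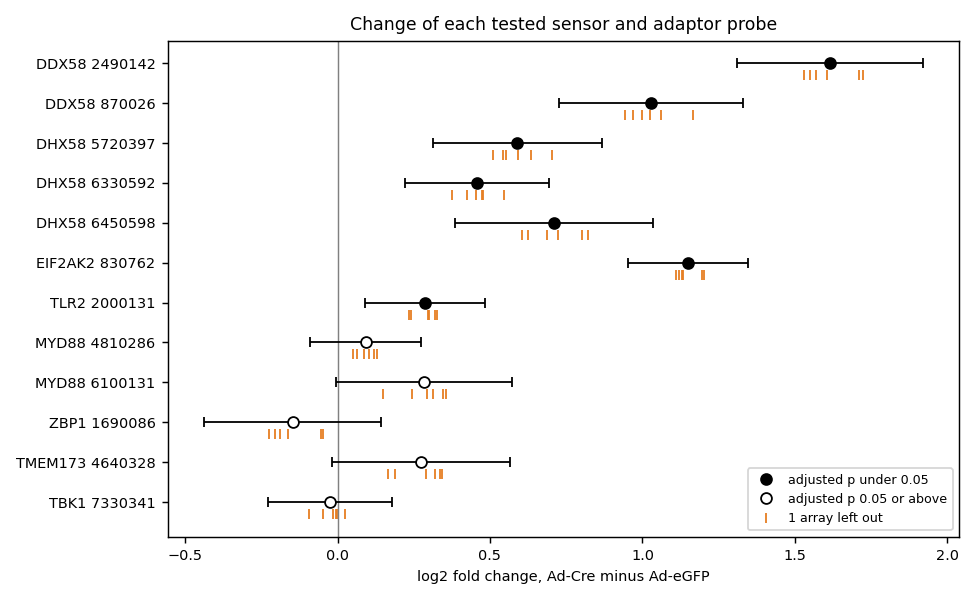
Log2 fold change of each tested probe, Ad-Cre minus Ad-eGFP, with its 95% confidence interval (bars) and, below each point, the values with 1 array left out (orange ticks). DDX58 probe 2490142 (1.61) and EIF2AK2 (1.15) lie furthest from 0, while the intervals of both MYD88 probes, ZBP1, TMEM173 and TBK1 include 0. For DDX58 probe 870026, undetected with Ad-eGFP, the fitted value is shown, and the difference is bounded only as at least 1.35-fold.

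Exact permutation tests over the 6 arrays cannot go below a two-sided p of 0.1 with 3 against 3, and each of the 9 tested probes without overlap reached that value. Under the thresholds that the study's methods name, a change of 1.5-fold together with an unadjusted p under 0.05, the methods' t-test put 5 of the 12 probes higher and 0 lower. These were both DDX58 probes, DHX58 probes 5720397 and 6450598, and EIF2AK2, beside 1622 (7.78%) of all tested probes in either direction. It was run as an ordinary equal-variance test on the intensities normalized here, without the further empirical Bayes step that the methods name. After Benjamini-Hochberg adjustment it called 3 of the 12. DDX58 probe 870026 counts in both tallies, though it was tested only through its detection with Ad-Cre.

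The genes that work with these sensors were followed through 7 lists, with 1 value per gene from its brightest tested probe. The lists are described by counts beside the shares of all probes given above. Of 24 called list genes examined, 14 had a log2 fold change smaller by over 1.5 times with the larger offset and 8 with no background correction, and 0 turned. With the larger offset it was 1.75 for ISG15, 1.05 for IFI205, 0.76 for CCL5, 0.57 for TNFAIP3 and 0.43 for STAT2.

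**Figure D4:**
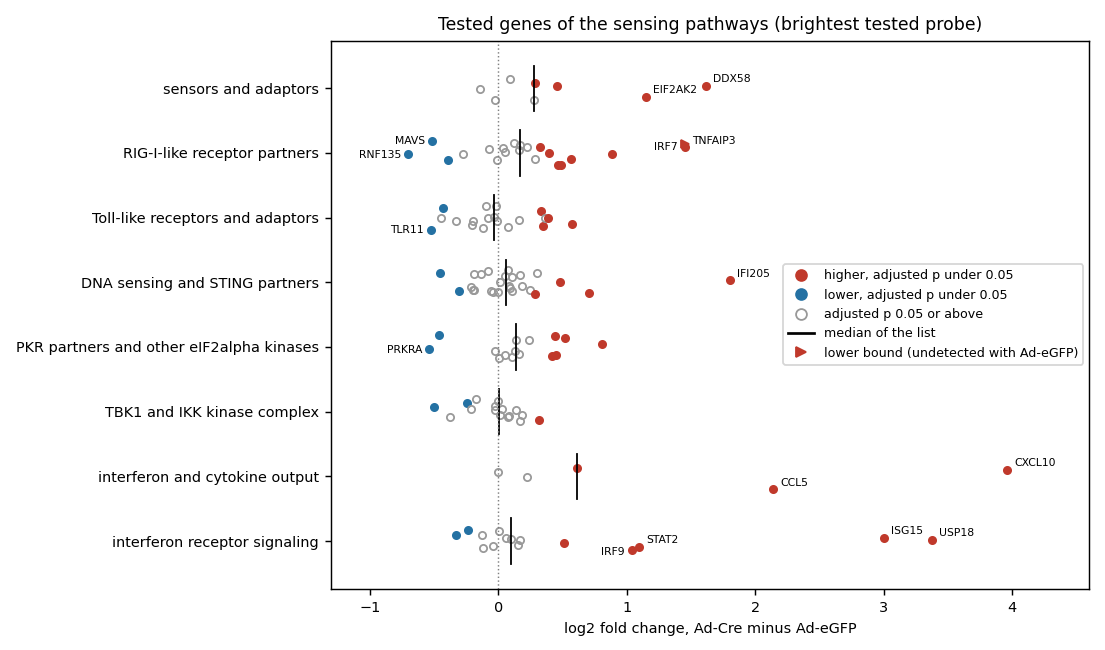
Log2 fold change, Ad-Cre minus Ad-eGFP, of each tested gene of the sensors and adaptors and of 7 lists of related genes, in red where higher and blue where lower at an adjusted p under 0.05, with a black bar at the median of each list. Among genes that all 6 arrays detected, USP18 (3.37) and ISG15 (3.00) lie furthest from 0. CXCL10 (3.96) was undetected on 2 of the 3 Ad-eGFP arrays. IRF7, undetected on all of them, is drawn at its lower bound of 1.45 at the offset of 16 (triangle).

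Partners of the RIG-I-like helicases moved in both directions. Of 21 tested genes, 8 were higher, 3 lower and 10 did not pass, with a median log2 fold change of 0.17. IRF7, the interferon factor that amplifies the response, read 7.11, 6.91 and 6.63 with Ad-Cre and was detected on none of the Ad-eGFP arrays, which makes it at least 2.73-fold higher (adjusted p = 1.78e-04, limma). It entered the test, and the count of 8, only through its detection with Ad-Cre. TNFAIP3, a ubiquitin-editing inhibitor of NF-kB, was higher by 1.45 (SE 0.16, adjusted p = 0.00134), and IFI35, an interferon-induced protein that also acts on DDX58, by 0.88 (adjusted p = 0.00195).

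The adaptor of DDX58 and a factor further along that route went the other way. MAVS read 8.89, 8.87 and 8.82 with Ad-Cre and 9.30, 9.36 and 9.47 with Ad-eGFP, without overlap, and was lower by 0.52 (log2 fold change -0.52, SE 0.08, adjusted p = 0.00433, limma). IRF3, the factor that TBK1 activates, had a log2 fold change of -0.39 on its brightest probe (SE 0.07, adjusted p = 0.0104), -0.29 on a second probe (adjusted p = 0.0237) and -0.24 on another (adjusted p = 0.163). Without Ad-eGFP replicate 3 the adjusted p of the brightest IRF3 probe was 0.0529. The last of the 3 lower genes was RNF135, a ubiquitin ligase of DDX58 that was named after its values were seen, with log2 fold changes of -0.70, -0.64 and -0.51 on its 3 probes. TRIM25, the other well-known ligase of DDX58, had a log2 fold change of 0.39 (SE 0.08, adjusted p = 0.0140) on its brightest probe and 0.22 (adjusted p = 0.501) on the second. Without Ad-Cre replicate 2 or Ad-eGFP replicate 1 the former did not pass (adjusted p = 0.0505 and 0.0557).

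The list of EIF2AK2 partners and other eIF2alpha kinases was likewise split, with 5 of 15 tested genes higher, 2 lower and 8 not past the threshold (median 0.14). That list also holds RIPK3, RIPK1 and MLKL, genes of cell death outside these groups. RIPK3 and MLKL were among the higher genes and RIPK1 among the lower. PPP1R15A (GADD34), which brings a phosphatase to eIF2alpha and reverses the kinase's action, read 10.43, 10.43 and 10.39 with Ad-Cre and 9.62, 9.61 and 9.62 with Ad-eGFP. That is a log2 fold change of 0.80 with hardly any spread (adjusted p = 4.81e-04, limma). PRKRA (PACT), a protein activator of EIF2AK2, read 11.36, 11.14 and 11.14 against 11.84, 11.72 and 11.69 and was lower by 0.54 (log2 fold change -0.54, SE 0.09, adjusted p = 0.00726). RIPK3, the partner of ZBP1 in cell death, had a log2 fold change of 0.52 (adjusted p = 0.0200). It did not pass without Ad-Cre replicate 1 or Ad-eGFP replicate 1 or 3 (adjusted p = 0.0601, 0.0687 and 0.0641).

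Of the 31 Toll-like receptors and adaptors on the array, 19 were tested. Of these 4 were higher, 2 lower and 13 did not pass, with a median of -0.04. Probes of TLR1, TLR7, TLR8 and TLR9 were undetected on all 6 arrays. TLR11 (log2 fold change -0.53, adjusted p = 0.00578) and TAB1, an activator of the kinase MAP3K7 (-0.43, adjusted p = 0.00649), were the 2 lower genes. The TLR11 probe was close to the detection limit with Ad-Cre (detection p of 0.0438, 0.0171 and 0.0459), and with a larger offset its log2 fold change was -0.10 and its call was lost (adjusted p = 0.0740). MAP3K7 had a log2 fold change of 0.57 (adjusted p = 0.0385) on its brighter probe and 0.18 (adjusted p = 0.449) on the other. Leaving out any Ad-Cre array or Ad-eGFP replicate 2 ended its call (adjusted p of 0.0629 to 0.0890). TICAM1, the adaptor of TLR3, did not pass (log2 fold change -0.20, adjusted p = 0.229).

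In DNA sensing, 4 of 26 tested genes were higher, 2 lower and 20 did not pass, with a median of 0.06. IFI205, of the family of interferon-inducible DNA-binding proteins, was higher on the 3 of its 6 probes that could be tested. The brightest read 9.18, 9.20 and 9.52 with Ad-Cre and 7.40, 7.63 and 7.46 with Ad-eGFP, for a log2 fold change of 1.80 (SE 0.12, adjusted p = 2.76e-04, limma), and the other 2 tested probes had log2 fold changes of 1.64 and 1.11. Genes of this family are closely alike in sequence, so which member the probes measured is uncertain. ADAR, the RNA-editing enzyme that keeps a cell's own RNA from IFIH1 and ZBP1, was higher by 0.71 on its brightest probe (adjusted p = 0.00361), and SAMHD1, which breaks down nucleotides, by 0.48 (adjusted p = 0.00744). MB21D1 (cGAS), which makes the ligand of TMEM173, showed no difference beyond its error, with a log2 fold change of -0.00 (SE 0.10, adjusted p = 0.985). Its probe was barely above background, with detection p-values of 0.0118 to 0.0481 over the 6 arrays, which limits what it could show.

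Around TBK1, 16 genes of the list for the TBK1 and IKK complexes were tested. Of them 13 did not pass, 1 was higher and 2 were lower (median 0.01). The list also holds genes outside these complexes, such as NFKBIA, NFKB1, RELA, FADD and CASP8. All of the called genes were among those outside. IKBKE, the kinase most like TBK1, had a log2 fold change of -0.38 with a large error (SE 0.17, adjusted p = 0.160). NFKBIA, the inhibitor of NF-kB, was the higher gene (0.31, adjusted p = 0.0368), while RELA, a subunit of NF-kB, and FADD, an adaptor of death receptors, were the lower ones (-0.24, adjusted p = 0.0477, and -0.50, adjusted p = 0.00806). The calls of NFKBIA and RELA both ended on leaving out Ad-Cre replicate 1 or 2 or any Ad-eGFP array, with adjusted p-values of 0.0641 to 0.122 and of 0.0997 to 0.143.

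Most interferon probes were undetected. The probe of IFNB1 and those of the 10 genes of the IFNA family listed by number were undetected on all 6 arrays, and 5 of the 24 genes of interferon and cytokine output on the array could be tested. Of these 3 were higher and 2 did not pass, with a median of 0.61. IFNAB, an interferon alpha gene, had 2 probes. Probe 6520674 was detected on all 6 arrays, with a log2 fold change of -0.01 (adjusted p = 0.970, limma). The other was detected on too few arrays to be tested. CXCL10 entered the test, and the count of 3, only through its detection with Ad-Cre. CXCL10, a chemokine that interferon induces, read 9.41, 9.45 and 9.57 with Ad-Cre and 5.17, 6.21 and 5.17 with Ad-eGFP, where 1 of the 3 arrays detected it (log2 fold change 3.96, SE 0.27, adjusted p = 3.15e-04, limma). The size of this difference therefore rests on signals at background, and it lay between 1.72 and 4.31 over the alternatives. The second CXCL10 probe had a log2 fold change of 1.14 (adjusted p = 0.00513). CCL5, a second chemokine, read 8.04, 7.98 and 8.21 against 5.82, 6.09 and 5.90 (log2 fold change 2.14, adjusted p = 8.27e-05). With Ad-eGFP its probe was close to the detection limit (detection p of 0.0128, 0.00214 and 0.00748). TNF had a log2 fold change of 0.61 (adjusted p = 0.0212), and of 0.16 with the larger offset. Its second probe, with 0.56, did not pass (adjusted p = 0.0508). The first passed neither without Ad-Cre replicate 2 nor without any of the Ad-eGFP arrays, with adjusted p-values of 0.0590 to 0.0696.

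Among genes that all 6 arrays detected, interferon receptor signaling held the largest called differences of the 7 lists. Of 15 tested genes, 5 were higher, 2 lower and 8 did not pass, with a median of 0.10. USP18, the protease that removes ISG15 and dampens the receptor, read 10.67, 10.92 and 10.75 with Ad-Cre and 7.33, 7.57 and 7.31 with Ad-eGFP (log2 fold change 3.37, SE 0.10, adjusted p = 1.45e-05, limma). ISG15, the ubiquitin-like protein itself, read 9.92, 10.08 and 9.82 against 7.01, 6.95 and 6.86 (log2 fold change 3.00, SE 0.09, adjusted p = 1.45e-05). STAT2 (1.09, adjusted p = 5.65e-04) was higher as well. The study chose CXCL10, ISG15 and USP18 on these same arrays, and their direction is not independent evidence.

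Markers of the cell types that such a culture could hold were read on the same arrays. Of the 12 Sertoli cell markers 6 were lower and 6 did not pass (median log2 fold change -0.40). The lower ones were FSHR (-1.46), WT1 (-0.66), AMHR2 (-0.60), SOX9 (-0.57), DHH (-0.50) and CLU (-0.38). With no background correction FSHR was -0.93, and with the larger offset -0.67, beside -0.64 for WT1. The study itself reports SOX9 and WT1 as lower on these arrays, so their direction is not independent evidence. The summed normalized intensity of the 12 markers was 129525, 125119 and 120050 with Ad-Cre and 147889, 147462 and 153073 with Ad-eGFP. In such bulk samples, fewer cells of a type and less RNA per cell cannot be told apart.

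Macrophages are known to express many of these sensors. The general leukocyte marker PTPRC and the macrophage genes ITGAM, C1QA and CD163 were undetected on all 6 arrays, and 12 of the 16 macrophage and leukocyte markers were tested. The summed intensity of these 12 was 9795, 9376 and 9550 with Ad-Cre and 11785, 11563 and 11987 with Ad-eGFP, most of it from LYZ1 and LYZ2. Of the 12 genes 1 was higher, 3 were lower and 8 did not pass, with a median log2 fold change of -0.05. LYZ1, the brightest, had a log2 fold change of -0.32 (adjusted p = 0.0136), LYZ2 of -0.35 (adjusted p = 0.0276) and FCER1G of -0.38 (adjusted p = 0.0124). All 3 calls ended without Ad-eGFP replicate 3 (adjusted p = 0.0602, 0.104 and 0.0558). That of LYZ1 also ended without Ad-eGFP replicate 1 or 2 (0.0503 and 0.0543), that of LYZ2 without Ad-Cre replicate 2 or Ad-eGFP replicate 1 (0.0795 and 0.0807), and that of FCER1G without Ad-eGFP replicate 2 (0.0536). CSF1R, the receptor of a macrophage growth factor, was detected with Ad-Cre only. At the offset of 16 it was at least 1.54-fold higher there. It entered the test (adjusted p = 0.00204, limma) only through the arrays on which it was high. Its fitted log2 fold change was 0.33 with no background correction and 0.16 with the larger offset. With the larger offset that of FCER1G was -0.20.

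On the brightest probe of each gene, no marker of the other cells of the testis passed the threshold. Among the tested markers, 0 of 4 germ cell genes (brightest DAZL), 0 of 2 Leydig cell genes (CYP11A1), 0 of 5 peritubular myoid genes (ACTA2) and 0 of 2 endothelial genes (PECAM1) passed in limma. At an unadjusted p under 0.05, 3 myoid genes were higher, 1 Leydig cell gene was lower, and 0 germ cell or endothelial genes passed. The second tested probes of 2 of these genes did pass, that of DAZL with a log2 fold change of -0.56 (adjusted p = 0.00726) against -0.03 on the brighter probe (adjusted p = 0.863), and that of CYP11A1 with 0.53 (adjusted p = 0.0263) against -0.28 on the brighter probe (adjusted p = 0.0923). Over the alternatives, 0 to 3 myoid genes were called higher and 0 to 1 Leydig cell genes lower. The count of 3 was reached with no background correction, the larger offset, detection p under 0.01 on all arrays, array weights and without Ad-Cre replicate 3, and CYP11A1 passed as lower with array weights and without Ad-Cre replicate 1. The summed myoid intensity was 61017, 59775 and 59540 with Ad-Cre and 57846, 56236 and 57854 with Ad-eGFP, and the summed germ cell intensity 3182, 3014 and 3660 against 3310, 3301 and 3300. The part of cell composition in the results for the sensors was not tested.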

How the data were processed

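Total RNA of 3 Ad-Cre and 3 Ad-eGFP samples was hybridized to Illumina mouse BeadChips. The sample labels gave the groups and replicate numbers. The authors deposited the raw intensity of each of 45281 probes on each array, not normalized and without background subtraction, and the p-value of its detection against negative-control beads. The 12 columns of bead SD and bead number, and a deposited table of the authors' own comparison (means, variances, fold changes, t statistics and p-values from FlexArray), were not used here. The study's methods name a version of the mouse array that differs from the one in the deposited records, and the version was not settled here.

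The analysis used limma 3.58.1 under R 4.3.3. Its function neqc corrected the background, estimating the negative-control level through the detection p-values, added an offset of 16, quantile-normalized and took log2. Probes with a detection p under 0.05 on at least 3 of 6 arrays (20855) were fitted with lmFit and eBayes without covariates, two-sided, with Benjamini-Hochberg adjustment over all of them. Single probes were also compared by exact permutation. The fit was tested on simulated data, but no outcome is given here, so this adds no support to the calls. A fold change is on the scale of intensity plus offset and understates the change of dim probes.

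The 10 genes and all gene lists were chosen with earlier results of these data known. All probes of these genes are described. From the 7 pathway lists the text names the 3 genes with the largest change among those past the threshold without overlap, MAVS, TICAM1, IRF3, IRF7, IKBKE, IFNB1, MB21D1 and TRIM25 whatever their value, and from the 6 marker lists the brightest gene and those called. RNF135, EIF2S1, XRCC5, TLR1, TLR7, TLR8, TLR9, PTPRC, ITGAM, C1QA, CD163, IFNAB and the IFNA family were named after their values were seen. All 226 list symbols matched RefSeq. HSP90B1, MNDA, TRADD, IL28A and PRM2 matched no symbol on the array and were left out. The number of arrays limits the precision. Alternatives were no background correction, median scaling, an offset of 256, no filter, the methods' t-test, detection p under 0.01 on all arrays, a replicate block, array weights, the mean of a gene's probes, and each array left out. For the lists and their named genes the same alternatives were chosen after seeing the data.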

Additional observations from a re-analysis of the deposited data

How the results depend on the processing

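Across the alternatives DDX58 probe 2490142 kept its direction and call in 14 of 14 (log2 fold change 0.67 with the larger offset to 1.73, adjusted p at most 0.0133) and EIF2AK2 in 14 of 14 (0.98 to 1.20, at most 0.00760). With the larger offset 6 of the 7 called member probes, all but that of EIF2AK2, had a log2 fold change smaller by over 1.5 times, and with no background correction 5 did. The TLR2 call was lost in 10 of 14, also under median scaling (adjusted p = 0.0610) and with no filter (0.0787). Counts of members higher were 7 probes and 4 genes. They were 6 and 3 under median scaling, 6 and 3 with no filter, 5 probes and 4 genes with detection p under 0.01 on all arrays, and 3 and 2 with the methods' t-test, where the DHX58 probes had adjusted p-values of 0.0619 to 0.0669. With 1 array left out they were 5 to 6 probes and 2 to 3 genes, and 0 members were lower in any alternative. Over all tested probes 4774 were called, 2231 of them higher. With 1 array left out 2483 to 5669 were called, 1172 to 2810 higher and 1311 to 2859 lower; the fewest were called without Ad-eGFP replicate 3. The methods' t-test called 1485 higher and array weights 3438. TBK1 turned to 0.01 (0.0082) under median scaling and to 0.02 (0.0246) without Ad-Cre replicate 1, with -0.095 as its lowest value with 1 array left out. MB21D1 turned to 0.02 (0.0168) under median scaling, to 0.05 (0.0467) without Ad-Cre replicate 3 and to 0.08 (0.0811) without Ad-eGFP replicate 3 (lowest -0.071), and DAZL to 0.05 (0.0480) without Ad-Cre replicate 2 (lowest -0.14); the cause was not tested. IKBKE passed as lower under array weights (log2 fold change -0.59, adjusted p = 0.0236). Over the alternatives the genes called higher numbered 6 to 10 for the RIG-I-like receptor partners, 0 to 4 for the Toll-like receptors and 3 to 6 for DNA sensing. They numbered 3 to 6 for the PKR list and 0 to 3 for the TBK1 and IKK list. Interferon output had 1 to 3, and interferon receptor signaling 5 in each. Those called lower numbered 2 to 4, 1 to 5, 1 to 4, 1 to 2, 1 to 4, 0 and 0 to 2 in the same order. Samples of the same replicate number deviated together only weakly (r = 0.157, 0.0554 and 0.0413 over probes). Samples of different numbers had lower values, from -0.0986 to 0.0411. Whether the numbers pair the samples is therefore not settled by these values. With the replicate block 4162 probes were called, 1915 higher and 2247 lower, with 6 member probes and 3 member genes higher.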

Other observations

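Where a gene of the lists had several tested probes, the probes did not always move together. The following genes were chosen after their values were seen. One probe of ZC3HAV1, an antiviral RNA-binding protein that assists DDX58, had a log2 fold change of 0.53 (adjusted p = 0.0441, limma), while the other 2 had -0.07 and 0.07. PPP1CC, a phosphatase that acts on DDX58 and IFIH1, had 0.75 on one probe (adjusted p = 8.11e-04) and 0.22 on the brighter one (adjusted p = 0.160). NFKB1, a subunit of NF-kB, had -0.73 on a dimmer probe (adjusted p = 0.0276) and 0.13 on the brightest (adjusted p = 0.343). DNASE2A, an enzyme that digests DNA in lysosomes, had -0.49 (adjusted p = 0.00752), -0.19 and -0.10 on its 3 probes. FADD, lower on 3 of its probes, had -0.05 on probe 3520059 (adjusted p = 0.844). Where the probes lie on the transcripts was not examined.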
